A study of Rattus norvegicus with 8 samples.

Results

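Transcripts of 10 proteoglycan core proteins were followed through grafted and unoperated rat sciatic nerve. They were the rows of the normalized read count table whose gene symbol was Vcan, Acan, Bcan, Ncan, Cspg4, Bgn, Dcn, Lum, Fmod or Prelp, which is 10 of the 32545 genes listed. Of these, 8 passed the filter on low values (at least 10 normalized read counts in at least 2 libraries), and Bcan and Ncan did not. Acan passed it through the allograft libraries alone, so its values against unoperated nerve are given as a description with no test.

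All animals were outbred female Sprague Dawley rats from Envigo, aged 3 to 6 months. The PEG group held 3 PEG-fused peripheral nerve allografts (PNAs), in which a sciatic nerve segment of another rat, not tissue-matched, was sutured into the host nerve and the cut axon ends were joined with polyethylene glycol, a polymer that fuses membranes. The NC group held 3 negative control PNAs, which received the same donor tissue, sutures, hypotonic saline and methylene blue but no polyethylene glycol. No host was immunosuppressed, and both kinds of graft were taken 14 days postoperatively (PO). The Unop group held 2 unoperated sciatic nerves, so a comparison with Unop covers the operation, the grafting and the time since surgery together. Each of the 8 libraries came from 1 animal. The comparison of PEG with NC asked how graft transcripts differed when the fusogen was left out, and the comparisons with Unop placed both grafts against intact nerve.

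A proteoglycan is a core protein that carries long sulfated sugar chains. Versican, aggrecan, brevican and neurocan (Vcan, Acan, Bcan, Ncan) are the lecticans, large chondroitin sulfate proteoglycans that bind hyaluronan and can hinder axon growth, and Cspg4 encodes NG2, a chondroitin sulfate proteoglycan that spans the membrane of pericytes and glial progenitors. Biglycan, decorin, lumican, fibromodulin and prolargin (Bgn, Dcn, Lum, Fmod, Prelp) are small leucine-rich proteoglycans (SLRPs), most of which bind collagen fibrils and control their thickness and spacing. In nerve they are laid down by the fibroblasts and perineurial cells of the connective tissue sheaths. Decorin and biglycan also bind growth factors, including TGF-beta.

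Stretches just upstream of the transcription start are shown for 4 members, because Vcan and Acan both stood higher in grafts than in unoperated nerve, whereas Lum and Fmod, SLRPs of the same class, stood on opposite sides of it in PEG-fused PNAs. The sequences are the 120 bases before the start in RefSeq, build GRCr8, written 5′ to 3′ on the gene's strand, and capitals mark GC boxes (GGGCGG, or CCGCCC where it lies on the opposite strand).
Vcan (chr2:22595956-22596075, minus strand): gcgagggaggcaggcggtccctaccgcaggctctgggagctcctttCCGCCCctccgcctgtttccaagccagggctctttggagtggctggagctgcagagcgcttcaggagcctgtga
Acan (chr1:142390831-142390950, plus strand): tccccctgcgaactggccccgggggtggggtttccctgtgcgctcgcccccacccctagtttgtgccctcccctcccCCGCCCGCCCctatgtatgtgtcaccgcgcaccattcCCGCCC
Lum (chr7:34245586-34245705, plus strand): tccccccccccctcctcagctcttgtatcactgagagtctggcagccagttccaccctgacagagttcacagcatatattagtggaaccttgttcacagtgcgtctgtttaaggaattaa
Fmod (chr13:48045447-48045566, plus strand): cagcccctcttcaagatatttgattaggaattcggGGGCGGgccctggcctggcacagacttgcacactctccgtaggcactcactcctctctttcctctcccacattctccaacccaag
Acan held 3 GC boxes in this stretch, a pair of them overlapping, Vcan and Fmod held 1 each, and Lum held 0. A GC box lies within 250 bases upstream of 30.5% of the 33469 rat promoters in the same table, so its presence in 3 of the 4 is a description of the letters. The stretches shown held no TATAAA (in 12.9% of promoters) and no TGANTCA, the AP-1 motif (in 6.34%), both strands searched in the 250 bases. TTCNNNGAA, the STAT motif (in 7.67%), was found once, upstream of the stretch shown for Fmod. A second annotated start of Vcan was searched too. The 1 GC box in its 250 bases, 172 bases upstream of that start, was the box already marked in the stretch shown. In the GRCr8 gene order, Dcn was followed by Lum, Kera and Epyc, Prelp lay between Optc and Fmod, Vcan lay beside the link protein gene Hapln1, and Acan lay beside Hapln3.

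Reads on genes numbered 32472925 to 39959620 per library. In skeletal muscle markers, NC 1 and NC 3 stood apart from the rest: the summed normalized read count of 8 markers was 800744 in NC 1 and 290305 in NC 3, against 3165 to 42673 in the other libraries. Schwann cell markers were present in every library, with sums of 28232 to 84057 in PNAs and 1332600 to 1567696 in Unop. T cell marker sums were 1066 to 3230 in PEG, 14880 to 29632 in NC and 163 to 299 in Unop. Because the tissue was sequenced in bulk, fewer cells of a type and less RNA per cell cannot be told apart.

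In PEG-fused PNAs, 3 of the 8 tested proteoglycans were upregulated relative to NC PNAs (Vcan, Cspg4 and Bgn), 0 were downregulated, and the other 5 also had higher means without passing the test. The test was limma on log2(normalized read count + 1) with all 8 libraries in 1 fit, and a gene was called at a Benjamini-Hochberg adjusted p under 0.05 over 16478 genes. Of all genes tested, 15.0% were called higher and 13.9% lower in that comparison. The median log2 fold change was 0.59 over the 8 members and 0.00 over all genes tested. NC 3 carried the highest value of its group for 6 of the 8 members, and without it 7 of the 8 were called higher, so the size of this count rests on 1 library. The share of all genes called without NC 3 is not given here.

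Against Unop, the members split. With Acan left aside, 3 members were higher (Vcan, Bgn, Lum) and 4 lower (Cspg4, Dcn, Fmod, Prelp) in PEG-fused PNAs, where 29.1% of all genes were called higher and 28.6% lower. NC PNAs had 1 higher (Vcan) and the same 4 lower, where 32.2% of all genes were called higher and 32.3% lower. The comparisons share their Unop libraries and, in part, their graft libraries, so they are not independent of each other.

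**Figure D1:**
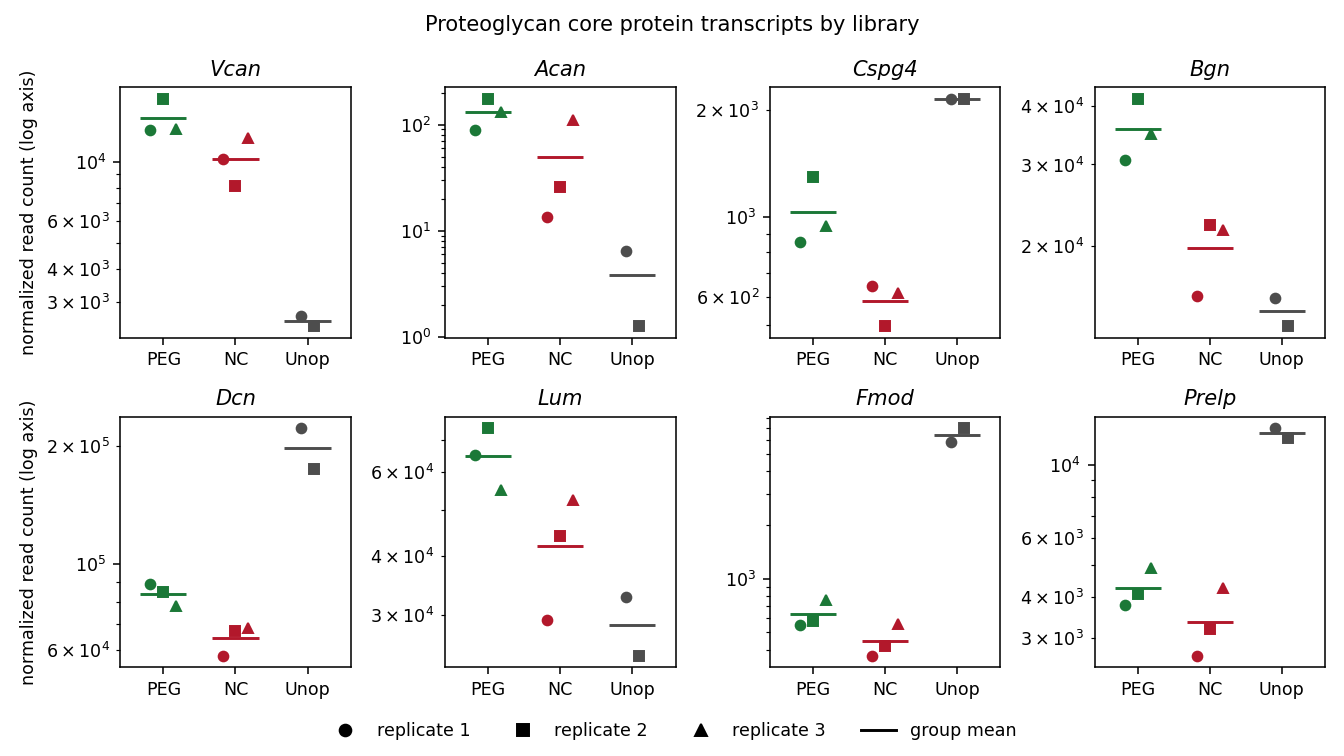
Normalized read counts (log axis, its range set for each gene) of the 8 tested proteoglycans in every library of the PEG, NC and Unop groups, with marker shape for the replicate number and a line for the group mean. Vcan and Acan are lowest in Unop, Cspg4, Dcn, Fmod and Prelp are highest there, and NC 3 is the highest NC library for 6 of the 8 genes.

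Vcan (ENSRNOG00000029212), the broadly expressed lectican of loose connective tissue, had normalized read counts of 13147, 17169 and 13281 in PEG 1 to 3, of 10222, 8155 and 12240 in NC 1 to 3, and of 2668 and 2439 in Unop 1 and 2. All 3 groups were separate, with PEG above NC and NC above Unop, although PEG 1 and NC 3 lay close together. The mean was 14532 ± 2284 (SD, n = 3) in PEG, 10206 ± 2043 (SD, n = 3) in NC and 2553 ± 162 (SD, n = 2) in Unop. The log2 fold change was 2.50 for PEG and 1.98 for NC against Unop (SE 0.18 each), with limma adjusted p-values of 1.3e-05 and 2.9e-05. Between the PNAs it was 0.52 (SE 0.16, limma adjusted p = 0.0457). That last call lay at the threshold: it was lost in 11 of the 16 alternative fits, including each one without a PEG library, without NC 1 or NC 2 and without either Unop library, with limma adjusted p-values up to 0.151.

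Acan (ENSRNOG00000028992), the main proteoglycan of cartilage, was low everywhere. It had 88.1, 176 and 132 normalized read counts in PEG, 13.4, 25.8 and 110 in NC, and 6.44 and 1.25 in Unop. The NC libraries were widely spread, and NC 3 lay within the PEG range. Every PNA library lay above both Unop libraries. The fitted log2 fold change from Unop was 4.97 in PEG and 3.10 in NC (SE 0.85 each). These sizes depend on the number added before taking logarithms, and with 8 in place of 1 they were 3.55 and 1.93. Without Unop 2 the NC value was 2.23. Between PEG and NC the log2 fold change was 1.87 with a 95% interval of 0.14 to 3.61, and it did not pass the test (limma adjusted p = 0.0990). Without NC 3 it was 2.70 and passed (limma adjusted p = 0.0187).

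Bcan (ENSRNOG00000018798) and Ncan (ENSRNOG00000048036), the lecticans of brain matrix, were barely detected. Bcan had 1 read in PEG 3 and 3 reads in Unop 1, and 0 in the other 6 libraries. Ncan had 3 reads in PEG 1 and 0 in the other 7. A count of 0 leaves room for up to 3 reads in a library, so no difference was detectable at this depth.

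Link proteins fasten lecticans to hyaluronan, and their genes sit beside the lectican genes. Hapln1, Hapln2 and Hapln3 were called lower in PNAs than in Unop, and only the Hapln2 calls held in every alternative fit of both comparisons. These genes were picked for their position after their values had been seen. Hapln4, beside Ncan, did not pass the filter on low values. Hapln1, beside Vcan, had a mean of 12.8 ± 14.0 (SD, n = 3) normalized read counts in PEG, 10.1 ± 9.82 (SD, n = 3) in NC and 82.2 ± 29.5 (SD, n = 2) in Unop. Its log2 fold change from Unop was -3.03 in PEG and -3.41 in NC (limma adjusted p = 0.0357 and 0.0198), and both calls were lost when either Unop library was left out, the PEG call also without PEG 1 or PEG 3. Hapln3, beside Acan, was lower than Unop in NC (-1.52, limma adjusted p = 0.00479) and in PEG (-0.95, limma adjusted p = 0.0440). The PEG call was lost in 6 of 16 alternatives, among them each one without a PEG or a Unop library. Hapln2, the neighbour of Bcan in the RefSeq order, had 838 and 930.5 normalized read counts in Unop and 2.81 to 18.3 in the 6 PNAs, with log2 fold changes of -6.78 in PEG and -5.77 in NC (limma adjusted p = 1.3e-05 and 1.9e-05).

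Cspg4 (ENSRNOG00000017208) had 856, 1299 and 947 normalized read counts in PEG, 644, 496 and 614 in NC, and 2147 and 2148 in Unop. The groups did not overlap, and the order was Unop above PEG above NC. The PEG mean of 1034 ± 234 (SD, n = 3) was 1.75-fold the NC mean on the fitted scale (log2 fold change 0.81, SE 0.17, limma adjusted p = 0.00898), and the NC mean was 585 ± 78.3 (SD, n = 3). Relative to Unop, Cspg4 fell by 1.08 on the log2 scale in PEG (limma adjusted p = 0.0013) and by 1.88 in NC (limma adjusted p = 4.2e-05). All 3 calls held in each of the 16 alternative fits. The summed normalized read count of 8 markers of pericytes and smooth muscle, cells that carry NG2, followed the same order. It was 15919 to 17188 in PEG, 8305 to 12667 in NC and 22448 to 22981 in Unop. Gene by gene, 5 of the 8 were higher in PEG than in NC (3 without PEG 1 or PEG 2, and 2 without PEG 3). Against Unop, however, 2 were higher and 3 lower in PEG (median -0.21). In NC, 0 were higher and 5 lower than in Unop (median -0.98). Schwann cell marker sums had the same order of groups. The part of either cell group in the Cspg4 result was not tested.

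Of the class I SLRPs, Bgn (ENSRNOG00000055962) had 30632, 41561 and 34864 normalized read counts in PEG, 15621, 22192 and 21727 in NC, and 15519 and 13449 in Unop. Every PEG library lay above every NC library, whereas NC 1 was nearly level with Unop 1. The PEG mean was 35685 ± 5511 (SD, n = 3) and the NC mean 19847 ± 3667 (SD, n = 3), a log2 fold change of 0.85 (SE 0.17, limma adjusted p = 0.00823) that passed in all 16 alternative fits. PEG was also above Unop (1.29, SE 0.19, limma adjusted p = 0.000591). For NC against Unop the log2 fold change was 0.44, with a 95% interval of 0.00 to 0.88 and a limma adjusted p of 0.0736. Without NC 1 it was 0.60 and passed (limma adjusted p = 0.0139).

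Dcn (ENSRNOG00000004554) moved the other way from unoperated nerve. It had 88690, 84633 and 77802 normalized read counts in PEG, 58013, 67097 and 68611 in NC, and 221810 and 174085 in Unop. Unop stood far above both PNAs, and every PEG library lay above every NC library. Dcn fell by 1.23 on the log2 scale in PEG (SE 0.18, limma adjusted p = 0.000612) and by 1.61 in NC (SE 0.18, limma adjusted p = 0.000101) relative to Unop. Between PEG and NC the log2 fold change of 0.38 had a 95% interval of -0.0017 to 0.75 and a limma adjusted p of 0.122. With DESeq2 on the reads it passed (adjusted p = 0.0159).

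Of the class II SLRPs, Lum (ENSRNOG00000004610) had 65317, 74178 and 55042 normalized read counts in PEG, 29282, 44023 and 52507 in NC, and 32679 and 24547 in Unop. The PEG and NC libraries did not overlap but came close at PEG 3 and NC 3, and NC 1 lay between the Unop libraries. Lum was upregulated in PEG relative to Unop by 1.18 on the log2 scale (SE 0.26, limma adjusted p = 0.00476). For NC it was 0.52 with a 95% interval of -0.08 to 1.12 (limma adjusted p = 0.109), and without NC 1 it was 0.76 and passed (limma adjusted p = 0.0153). Between PEG and NC it was 0.66 with a 95% interval of 0.12 to 1.20 (limma adjusted p = 0.0671), which passed without NC 3 (0.84, limma adjusted p = 0.0409).

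Fmod (ENSRNOG00000003183) had the lowest fold change from Unop among the 8 tested members. It had 549.6, 582 and 762 normalized read counts in PEG, 368, 421 and 558.5 in NC, and 5820 and 6960 in Unop. Each Unop library lay above each PNA library, and PEG and NC overlapped through NC 3. The fitted fall from Unop was 10.2-fold in PEG (log2 fold change -3.35, SE 0.20, limma adjusted p = 5.7e-06) and 14.4-fold in NC (-3.84, SE 0.20, limma adjusted p = 1.9e-06). Between PEG and NC the log2 fold change was 0.50 (SE 0.18, limma adjusted p = 0.0741), and without NC 3 it was 0.67 (limma adjusted p = 0.0296).

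Prelp (ENSRNOG00000003120), whose protein anchors basement membranes to connective tissue, is the gene next to Fmod and had the same order of groups. It had 3785, 4084 and 4874 normalized read counts in PEG, 2649, 3191 and 4247 in NC, and 12863 and 12031 in Unop. It fell by 1.56 on the log2 scale in PEG (SE 0.19, limma adjusted p = 0.000202) and by 1.91 in NC (SE 0.19, limma adjusted p = 4.5e-05). PEG and NC overlapped, with a log2 fold change of 0.36 (95% interval -0.03 to 0.75, limma adjusted p = 0.152). Without NC 3 this was 0.54 and passed (limma adjusted p = 0.0307).

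**Figure D2:**
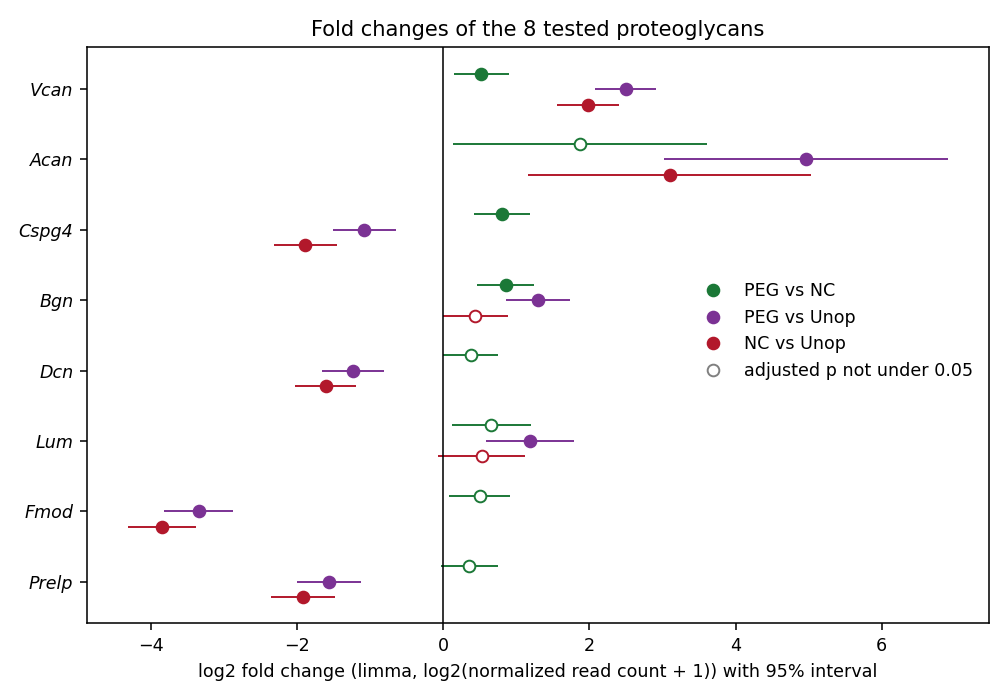
Log2 fold changes (x axis) of the 8 tested proteoglycans with 95% intervals, for PEG vs NC and for each PNA group against Unop. Filled points passed the limma test at an adjusted p under 0.05 and open points did not. All 8 PEG vs NC points lie right of 0, and Fmod has the lowest values against Unop. Acan against Unop is shown as a description.

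Dcn and Lum are adjacent genes, yet Dcn was lower and Lum higher in PEG than in Unop. The ratio of Lum to Dcn reads within a library removes any scaling between libraries. It was 0.736, 0.876 and 0.707 in PEG, 0.505, 0.656 and 0.765 in NC, and 0.147 and 0.141 in Unop. The PEG and NC ratios overlapped, and both stood above Unop. The ratio of Bgn to Dcn was 0.345, 0.491 and 0.448 in PEG, 0.269, 0.331 and 0.317 in NC, and 0.0700 and 0.0773 in Unop, and here every PEG library lay above every NC library. These ratios were picked after the values had been seen and are given with no test. They are not corrected for transcript length, so only their change between libraries can be read. The other neighbours of Dcn and Lum, Kera and Epyc, are SLRPs of the cornea and of cartilage. Kera had 1.08 to 15.0 normalized read counts in the 6 PNAs and 42.9 and 195 in Unop, and Epyc had 4.82 to 17.8 in PNAs and 19.3 and 275 in Unop.

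**Figure D3:**
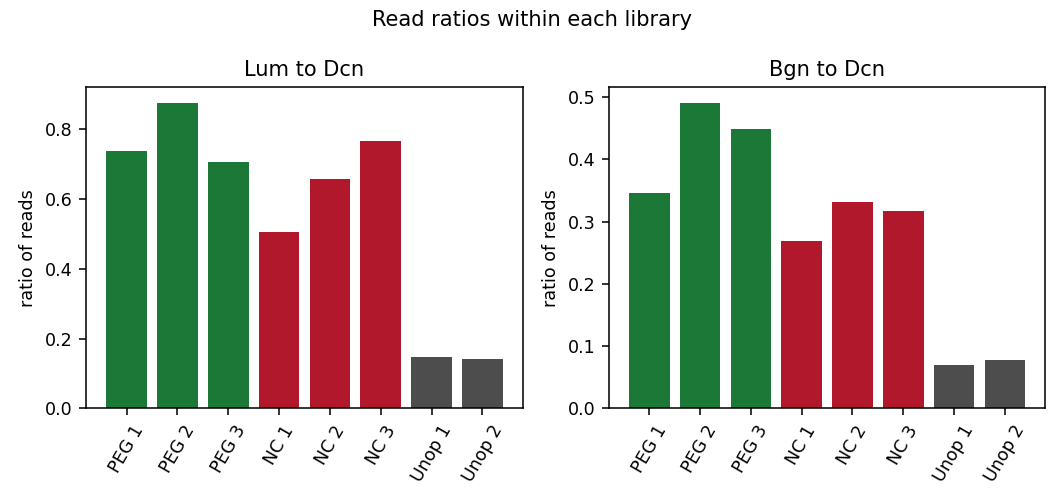
Ratio of Lum to Dcn reads (left) and of Bgn to Dcn reads (right) in each library, bars from 0, coloured by group. Unop bars are at 0.141 to 0.147 and 0.0700 to 0.0773, below every PNA bar, and PEG and NC overlap for Lum to Dcn but not for Bgn to Dcn.

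Each list count, of pathway genes or of markers, is to be read beside the shares over all genes. These were 15.0% higher and 13.9% lower in PEG vs NC, 29.1% and 28.6% in PEG vs Unop, and 32.2% and 32.3% in NC vs Unop. A list count near these shares is no result about the list. Among other SLRPs, 2 of 9 tested were higher and 1 was lower in PEG than in NC, with a median log2 fold change of 0.22. Ogn, which encodes osteoglycin, a SLRP of the sheaths, had the smallest adjusted p (mean 8450.5 ± 278 in PEG and 4071 ± 255 in NC, SD, n = 3 each), a log2 fold change of 1.05 (SE 0.13, limma adjusted p = 0.00118), and like Dcn it was lower in NC than in Unop (-2.41, limma adjusted p = 2.8e-06). Tsku, a secreted SLRP that binds several growth factors, was higher by 0.86 (limma adjusted p = 0.0045). Podnl1 was the exception, at -1.46 in PEG against NC (limma adjusted p = 0.0385), a call lost without any 1 PEG library, without NC 2 or without NC 3. Against Unop, NC had 2 of the 9 higher and 4 lower, with a median of -0.82. Among the higher ones was Podnl1, which passed the filter through the allografts alone (under 10 normalized read counts in either Unop library). Without Unop 2 the lower count was 2, and without NC 1, NC 3 or any 1 PEG library the higher count was 1.

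Of 19 other proteoglycans tested, which carry mostly heparan sulfate, 5 were higher and 2 lower in PEG than in NC (median 0.38), with 8 higher when either Unop library was left out and 1 lower without PEG 1 or PEG 3. The higher genes included the glypicans Gpc6 (1.42, limma adjusted p = 0.00258) and Gpc1 (1.11, limma adjusted p = 0.00281), which are heparan sulfate proteoglycans anchored to the cell surface. Srgn, the core protein of secretory granules in blood cells, was lower (-1.93, SE 0.21, limma adjusted p = 0.000896), with a mean of 1409 ± 328 in PEG and 5336 ± 1081 in NC (SD, n = 3 each). All 6 T cell markers tested were also lower in PEG than in NC. Against Unop they parted from Srgn, which had a mean of 2362 ± 523 (SD, n = 2) in Unop, above PEG, whereas the T cell marker sums of PEG lay above those of Unop. The part of T cells in the Srgn result was not tested. Against Unop, NC had 7 of the 19 higher and 9 lower (median -0.12), where 32.2% of all genes were higher and 32.3% lower. The higher ones included Impg2, which passed the filter through the allografts alone (5.37 and 1.25 normalized read counts in Unop). Spock2, a testican of the extracellular matrix, was at 866 and 875.5 normalized read counts in Unop and 4.30 to 20.6 in NC.

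The enzymes that build the sugar chains fell into 4 lists. Of 7 enzymes of the linkage region, which joins chain to core protein, 2 were higher in PEG than in NC (B4galt7 0.38 and B3galt6 0.43, limma adjusted p = 0.0312 and 0.0352), both calls lost without PEG 2, PEG 3, NC 1 or NC 2. Of 6 enzymes that start and lengthen chondroitin chains, 1 was higher (2 without NC 2 or NC 3, and 3 without either Unop library), Csgalnact1 (0.83, SE 0.12, limma adjusted p = 0.00201), which adds the first N-acetylgalactosamine and was lower in NC than in Unop (-0.78, limma adjusted p = 0.000886). Chsy1, a chondroitin synthase, was higher in NC than in Unop (1.52, limma adjusted p = 0.000167). Of 14 enzymes of chondroitin and dermatan sulfation, 4 were higher and 1 lower in PEG than in NC (median 0.14). The lower one was Dse, a dermatan sulfate epimerase (-0.29, limma adjusted p = 0.0463), its call lost without any 1 PEG library, NC 2 or NC 3. The higher ones included Chst3, a chondroitin 6-O-sulfotransferase (1.05, limma adjusted p = 0.00593), Dsel (0.99, limma adjusted p = 0.0045) and Papss1, which makes the sulfate donor (0.55, limma adjusted p = 0.00601). Against Unop, NC had 6 of the 14 higher and 6 lower, with Papss1 at -2.21 and Dse at 1.20 (limma adjusted p = 1.8e-06 and 2.1e-05). Of 5 keratan sulfate enzymes, whose product decorates Lum and Fmod, 3 were higher and 2 lower in PEG than in NC (1 higher without PEG 2, and 0 lower without any 1 PEG library, NC 2 or NC 3), and B4galt4 had the smallest adjusted p (0.47, limma adjusted p = 0.00892).

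Among genes whose products take chondroitin sulfate proteoglycans apart, those that passed the test between the PNAs were higher in PEG. Of 9 proteases that cleave lecticans, 5 were higher and 0 lower (median log2 fold change 0.55, against 0.00 over all genes). Adamts4, an aggrecanase, had a mean of 2316 ± 363 in PEG, 913 ± 98.2 in NC (SD, n = 3 each) and 273 ± 67.0 in Unop (SD, n = 2). Its log2 fold change was 1.34 in PEG against NC (SE 0.17, limma adjusted p = 0.00131) and 1.75 in NC against Unop (limma adjusted p = 6.2e-05). Adamts9, which cleaves versican and aggrecan, was higher by 1.20 and Adamts16 by 1.05 in PEG against NC (limma adjusted p = 0.00151 and 0.00794). Of 8 tested lysosomal and other enzymes of chondroitin sulfate degradation, 7 were higher and 0 lower (median 0.45), and the higher ones included Arsb, the sulfatase that removes 4-O-sulfate (1.28, SE 0.13, limma adjusted p = 0.000631), and Hexa (0.46, limma adjusted p = 0.00624). Without PEG 2 or without PEG 3 the count was 4 of 8. Hyal4 of the same list was listed at 0 in every library. Against Unop, NC had 6 of the 8 higher and 1 lower, with Glb1 at 1.40, Galns at 1.76 and Gusb at 1.68 (limma adjusted p = 9.8e-06, 2.8e-05 and 3.1e-05).

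Of 4 receptors through which chondroitin sulfate acts on axons, 3 were higher in PEG than in NC and 0 lower. These were the receptor phosphatases Ptprs (0.56, limma adjusted p = 0.00685) and Ptprf (0.51, limma adjusted p = 0.0112) and the Nogo receptor Rtn4r (1.34, limma adjusted p = 0.00748), and the count of 3 held in each alternative. Relative to Unop, NC had 2 of the 4 lower, Ptprf (-1.82) and Rtn4r (-1.81), with limma adjusted p-values of 5.8e-06 and 0.000747. Of 19 genes of hyaluronan metabolism and binding, 4 were higher and 1 lower in PEG than in NC, among them Hyal2, a hyaluronidase (0.48, limma adjusted p = 0.0041), Lyve1, a hyaluronan receptor (1.04, limma adjusted p = 0.010), and Itih3, which was lower (-1.76, limma adjusted p = 0.0129). Without PEG 2 the count of higher genes was 2. Against Unop, NC had 6 of the 19 higher and 8 lower, where 32.2% of all genes were higher and 32.3% lower. The higher ones included Cemip, which passed the filter through the allografts alone. Cd44, the main hyaluronan receptor, was higher by 2.51 (SE 0.19, limma adjusted p = 9.4e-06), and Cemip, which depolymerizes hyaluronan, had 162 to 374 normalized read counts in NC and 3.22 and 1.25 in Unop.

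Fibrillar collagens and their associates, to which SLRPs bind, had 7 of 11 higher and 0 lower in PEG than in NC, with a median log2 fold change of 1.04. Col11a1, a minor collagen that nucleates fibrils, was higher by 1.95 (SE 0.22, limma adjusted p = 0.000986), Col12a1, which sits on fibril surfaces, by 1.48 (SE 0.21, limma adjusted p = 0.00224), and Col5a2 by 1.04 (limma adjusted p = 0.0079). Without PEG 3 or without NC 2 the count was 3 of 11, and without NC 1 it was 4 of 11, and those named here passed in every alternative. Against Unop, NC had 0 higher and 3 lower (median 0.06), with 1 lower when either Unop library was left out and 1 higher without NC 1.

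**Figure D4:**
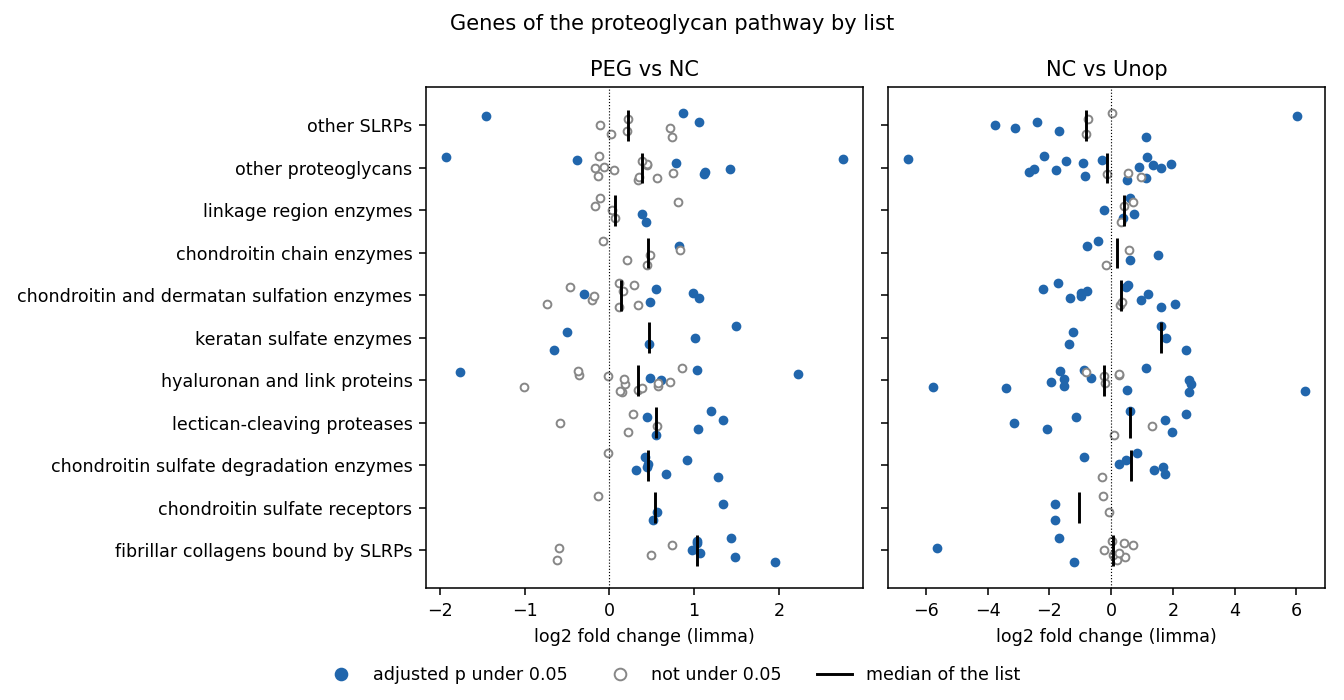
Log2 fold changes (x axis) of the tested genes of each pathway list, PEG vs NC on the left and NC vs Unop on the right, with filled points for a limma adjusted p under 0.05, open points for the rest and a black line at each list's median. In PEG vs NC every list's median lies above 0, from 0.06 for linkage region enzymes to 1.04 for fibrillar collagens.

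Markers of cells that could supply these transcripts followed them in some comparisons and not in others. Fibroblast markers had 7 of 12 higher in PEG than in NC (4 without PEG 3, median 0.75 in all libraries), and their summed normalized read count, made up mostly of Col1a1 and Col3a1, was 474490 to 752038 in PEG, 271120 to 420313 in NC and 207120 to 293028 in Unop. Counted gene by gene, however, the same list had 4 higher and 5 lower in PEG than in Unop (median -0.20), and 1 higher and 7 lower in NC than in Unop (median -0.66). Within NC the sum was highest in NC 3, as for 6 of the 8 members. Perineurial markers stood at 6903 to 7728 in PEG, 4516 to 7276 in NC and 79797 to 92766 in Unop, and 4 of 5 tested perineurial markers were lower in either PNA than in Unop, as Fmod and Prelp were. The fifth, Moxd1, was at a mean of 410 normalized read counts in PEG, 253 in NC and 31.9 in Unop. Within NC the perineurial sum was lowest in NC 3, where Fmod and Prelp were highest. Lypd2 of that list was at 0 in every library. Adipocyte markers, all 6 lower in either PNA, were at 3606 to 9156 in PNAs and 56749 to 99045 in Unop. Against Unop, chondrocyte markers ran opposite to Acan: they summed to 632 to 666 in PEG, 287 to 730 in NC and 18580 to 23179 in Unop, with Col2a1 at 721 and 809 in Unop and 0.965 to 155.5 in PNAs. Between the PNAs, 2 of 7 chondrocyte markers were higher and 0 lower in PEG than in NC (1 higher without PEG 1 and 0 without PEG 2), with a median of 0.50. Macrophage markers, at 46685 to 52252 in PEG, 63794 to 71644 in NC and 9776 to 12850 in Unop, had 5 of 6 lower in PEG than in NC (3 without PEG 2). The part of these cell types in the proteoglycan results was not tested.

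Over the 8 libraries the members ran in 2 patterns on the log2 scale. The correlations are descriptions, since every pair shares the libraries and the differences between groups. Fmod and Prelp had a Pearson r of 0.99 with each other, Dcn had 0.96 with either, and Cspg4 had 0.92 with Dcn. Bgn and Lum had 0.95, Acan had 0.95 with Lum and 0.91 with Bgn, and Vcan had 0.92 with Acan. Vcan and Fmod were opposed, at -0.91. The gene most like each member over all 16478 tested was Igf2r for Vcan (0.996), C1qtnf5 for Acan (0.982), Lrp11 for Cspg4 (0.995), Atraid for Dcn (0.998), Itga10 for Lum (0.983), Fmo2 for Fmod (0.998) and Iqsec1 for Prelp (0.994). For Bgn it was a gene whose symbol the table gives as a date (ENSRNOG00000029912, 0.994), followed by Ankrd33b (0.990) and Col6a1 (0.989), a chain of collagen VI. Fmo2, a flavin monooxygenase, had 76.9, 88.8 and 121 normalized read counts in PEG, 58.1, 60.2 and 81.0 in NC, and 3118 and 3448 in Unop, which is the order and the NC 3 rise of Fmod. The next most like were Gmppb and AABR07065531.5 for Vcan, P4ha3, which hydroxylates collagen prolines, and AABR07030366.1 for Acan, Tmem35a and Larp6 for Cspg4, Ngef and AABR07060487.1 for Dcn, Gpr153 and Slc17a5 for Lum, Endou and Ctnna2 for Fmod, and Cped1 and Patz1 for Prelp.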

How the data were processed

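RNA of 8 nerves (3 PEG, 3 NC, 2 Unop) was sequenced from stranded, poly-A-selected libraries. The authors mapped the reads with TopHat2 (Rnor 6.0), took gene counts from HTSeq and deposited a signal, the count divided by DESeq2 median-of-ratios size factors (0.800 to 1.12), so values are relative to each library and not to transcript length. Whole reads were recovered from 100% of values above 0 (within 0.001 of a read). Columns of the authors' own fold changes and p-values were not used. Groups came from the sample labels. The table was analysed with limma 3.58.1 (trend; pseudocount 1), and edgeR 4.0.16 and DESeq2 1.42.0 on the recovered reads were alternatives, in R 4.3.3. On simulated data for PEG vs NC with 16478 genes, limma recovered 76 of 100 genes changed 2-fold and 98 of 100 changed 4-fold, with 11 false calls. The simulation set the same dispersion for every gene and changed far fewer genes than were called here. Its figures check the code and are not rates for these data. The members and lists were chosen with earlier results of these data known, so list counts are no independent evidence. List counts against Unop keep genes that passed the filter through the allografts alone, as Acan did. Besides the members, genes were named by rule: of each pathway list at most 3 called genes with the smallest adjusted p in PEG vs NC and at most 3 in NC vs Unop, and for each member the 3 tested genes with the highest Pearson r. Hapln1 to Hapln3, Kera and Epyc were added as neighbours. Listed genes with no row under their symbol (Podn, Gpc5, Hspg2, Chst6, Itih5, Myh1, Myh4) were not analysed here. Bpnt2, another symbol of Impad1, was covered under that name, and of the 2 rows of Impad1 the one with the higher mean was used. Promoters of Bgn, Dcn and Prelp were not used here. Other alternatives were TMM factors, a pseudocount of 8, no filter or a minimum of 50, the 2 groups alone, the replicate number as a block, and leaving out each library. Some genes that the naming rule selects are not reported here.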

Additional observations from a re-analysis of the deposited data

How the results depend on the processing

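No fold change of a member changed sign in any of the 384 alternative values, and 360 of them kept their side of the threshold, while 12 gained a call and 12 lost one (11 of these Vcan in PEG vs NC). With DESeq2, 6 members were called higher in PEG vs NC and 4 in NC vs Unop, in place of 3 and 2 (counts against Unop here include Acan, which passed the filter through the allografts alone). Leaving out 1 library at a time gave 2 to 7 members higher in PEG vs NC and 1 to 4 in NC vs Unop. The shares of all genes called in these alternative fits are not given here, so a changed count is no result about the members alone. Same-numbered PEG and NC libraries deviated together with correlations of 0.108, 0.109 and -0.050, and differently numbered ones with -0.159 to 0.098. Same-numbered libraries of a PNA group and Unop had 0.136 to 0.157. With 2 or 3 libraries per group, these values cannot settle whether the numbers pair samples. The main fit treated the libraries as unpaired. With the replicate block 3 members were still counted higher in PEG vs NC, although Vcan lost its call (adjusted p = 0.0857) and Fmod gained one (adjusted p = 0.0126, limma). Of 1920 alternative counts over the pathway and marker lists, 123 moved by more than 1.5 times or to or from 0. Of the 30 pathway genes named for PEG vs NC by the rule, 25 were called in every alternative, and of the 35 in NC vs Unop counted with Hapln1 to Hapln3, 32 were, and 0 of those values reversed. TMM factors shifted the median of all genes by less than 0.02. With 2 Unop libraries, folds against Unop rest on a spread shared with the PNA groups, and Acan, Bcan, Ncan, Kera and Hapln1 are limited by counts.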
